A study of Mus musculus with 6 samples.

Results

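The 10 genes described here encode surface proteins by which T cells and developing thymocytes are recognised and staged: the coreceptor genes Cd4, Cd8a and Cd8b1, the pan-T genes Thy1, Cd2, Cd5 and Cd6, the costimulatory receptor Cd27, the early activation marker Cd69, and Kit, the receptor of stem cell factor. They were taken as a named list, matched by symbol to the Entrez gene IDs of the deposited table, and all 10 of 10 were found among its 40808 IDs. The labels give the tissue as spleen and describe the RNA source as leukaemia cells of mice carrying a bone marrow transplant, without naming their lineage. Of the 6 libraries, 3 (replicates 4, 5 and 6) came from mice labelled as not given Dox and 3 (replicates 10, 11 and 12) from mice labelled as given it, and the transplant was common to both groups. The strain, age and sex of donors and recipients, the transplanted construct, and the dose and timing of Dox are not given in the sources used here. Per its title, the series concerns a pathway of UVRAG, ITCH and ESCRT proteins that acts on NOTCH.

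Thymocytes pass through stages that are read from these molecules. The earliest progenitors carry KIT and neither coreceptor, the next stages gain CD4 and CD8 together, and mature cells keep one of them; CD4 binds MHC class II and CD8 binds MHC class I, and both bring the kinase LCK to the T cell receptor. T cell leukaemias driven by NOTCH are often arrested at one of these stages. Several of the genes are not limited to T cells: in mice CD2 is also carried by B cells, CD5 by a subset of B cells, CD4 and CD8A by some dendritic cells, and KIT by haematopoietic progenitors and mast cells.

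The libraries were checked on 8 listed T cell markers (Cd3d, Cd3e, Cd3g, Cd247, Lck, Lat, Trbc2 and Bcl11b). Their summed level was 1898 to 1992 normalized CPM (read counts put on one scale by library size and composition) without Dox and 175 to 195 with Dox, and 8 of 8 were lower with Dox. The Dox libraries had higher sums of B cell markers (9 genes, 1928 to 2123 CPM) and neutrophil markers (6 genes, 1710 to 1955 CPM) than of T cell markers, which goes against reading them as libraries of T lineage leukaemia cells alone. Total counts per library were 5541486 to 8725767, so that 3 counts, the limit that a count of 0 allows, corresponded to 0.309 to 0.608 normalized CPM. This limit covers counting error only. The 95% intervals of fold changes given for single genes were computed from the edgeR fit and include the spread between libraries. The common biological coefficient of variation was 0.190 without Dox and 0.516 with Dox. Haemoglobin genes took 8.61% to 9.04% of counts without Dox and 14.1% to 15.9% with Dox. Together 4 genes of the Y chromosome (Uty, Kdm5d, Eif2s3y and Ddx3y) summed to 545 to 801 counts without Dox and 0 with Dox. Xist had 193 to 324 counts without Dox and 3347 to 5669 with Dox, so Dox and a difference in sex cannot be told apart. The libraries without Dox held both kinds of count, and the sex of donors and recipients is not given. Whether the share of donor and host cells differed between the groups was not tested. Nothing in the labels says that the libraries of a group came from separate mice, and p-values then measure only the spread between these libraries, which may be technical.

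Of the 10 genes, 6 fell with Dox (Thy1, Cd8a, Cd27, Cd8b1, Cd6 and Cd4), 1 rose (Kit) and 3 did not pass the test (Cd2, Cd5 and Cd69). The falls ran from 52.1-fold for Thy1 to 2.92-fold for Cd4, and Kit was 10.7-fold higher. All 10 passed the filter on low counts and were tested with edgeR (quasi-likelihood test, Benjamini-Hochberg adjustment over all genes, threshold 0.05). Over the 14110 genes tested, 45.6% passed, 22.1% lower and 23.6% higher with Dox. The higher genes were 51.6% of those called, and 64.3% when libraries were scaled by size only, which moved the median over all tested genes from 0.07 to 0.38 (log2 fold change). The median log2 fold change of the 10 genes was -1.75. In 7 of the 10 genes the 2 groups did not overlap, against a background of 59.6% of tested genes. In bulk RNA, fewer cells of a type and less RNA per cell cannot be told apart.

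**Figure D1:**
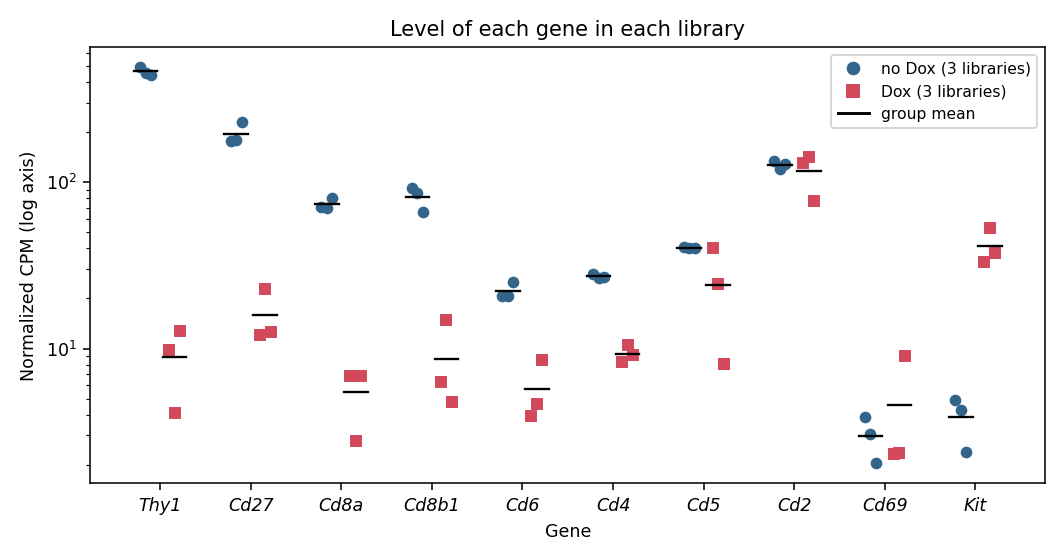
Normalized CPM (log axis) of the 10 genes in each of the 6 libraries, with circles for no Dox, squares for Dox and a bar at each group mean. Thy1, Cd27, Cd8a, Cd8b1, Cd6 and Cd4 lie lower in all 3 Dox libraries than in any library without Dox, Kit lies higher, and the groups overlap for Cd5, Cd2 and Cd69.

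The CD8 chains were compared first among the coreceptors. Cd8a (Entrez gene 12525, GRCm38 chromosome 6, 71373427 to 71379171, plus strand) encodes the CD8 chain that binds LCK. Its level was 70.9, 70.1 and 80.2 CPM without Dox and 6.80, 2.78 and 6.85 CPM with Dox, from 346 to 475 and from 27 to 52 counts. All 3 Dox libraries were far below the others, with replicate 11 the lowest. This gave a log2 fold change of -3.76 ± 0.34 (SE; edgeR adjusted p = 2.18e-05). Cd8b1 (Entrez gene 12526, chromosome 6, 71322788 to 71337492, plus strand) encodes the partner chain of the CD8 heterodimer and lies 35.9 kb from Cd8a with no other annotated gene between them. Its level was 93.0, 86.1 and 66.3 CPM without Dox and 6.26, 14.8 and 4.74 CPM with Dox. The groups did not overlap, and here replicate 11 was the highest of the Dox libraries. The log2 fold change was -3.23 ± 0.40 (SE; adjusted p = 0.000142 by edgeR), and it was -3.91 without Dox replicate 11.

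The balance of the CD8 chains was read as a ratio within each library. Without Dox the ratio of Cd8b1 to Cd8a counts was 1.31, 1.23 and 0.827, and with Dox it was 0.921, 5.25 and 0.695. Either chain could be the higher in both groups, and replicate 11 stood apart in size, at 144 against 27 counts. The mean log2 ratio was 0.45 higher with Dox, and the groups overlapped (exact permutation test, two-sided, p = 0.9; 3 libraries against 3 cannot give less than 0.1). Without replicate 11 the difference was -0.46.

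Cd4 (Entrez gene 12504, chromosome 6, 124864693 to 124888247, minus strand) was the coreceptor gene with the smaller fall. It was measured at 28.1, 26.5 and 27.0 CPM without Dox and 8.30, 10.5 and 9.09 CPM with Dox, from 131 to 188 and from 61 to 102 counts. The libraries of each group lay close together and the groups were well apart. The log2 fold change was -1.54 ± 0.27 (SE; adjusted p = 0.00128 by edgeR), and 33.1% of tested genes had a log2 fold change of that size or more, up or down. The coreceptors were also set against each other within libraries. Without Dox the ratio of Cd4 to Cd8a counts was 0.396, 0.380 and 0.337, and with Dox it was 1.22, 3.73 and 1.32. Cd8a had the higher count in every library without Dox and Cd4 in every library with Dox. Against Cd8b1, Cd4 was lower in every library without Dox, and with Dox it was higher in replicates 10 and 12 but not in replicate 11 (102 against 144 counts). The mean log2 ratio was 2.30 higher with Dox (exact permutation test, two-sided, p = 0.1, the least this design allows; 0.15 after Benjamini-Hochberg adjustment over the 12 ratios tested).

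Cd4 and Cd8a are also found on dendritic cells, and dendritic markers moved with the groups. All 7 of 7 (Itgax, Xcr1, Clec9a, Flt3, Batf3, Zbtb46 and Siglech) were higher with Dox, their summed level was 11.9 to 18.8 CPM without Dox and 124 to 135 with Dox, and none was at 0 throughout a group. Macrophage markers were less uniform, with 2 of 8 higher (Lyz2 and Mertk), 1 lower (Adgre1) and 5 not past the threshold. Their summed level was 530 to 657 CPM without Dox and 716 to 1007 CPM with Dox. The part of either cell type in the Cd4 and Cd8a counts was not tested.

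Thy1 (Entrez gene 21838, chromosome 9, 44043384 to 44048579, plus strand) encodes a lipid-anchored glycoprotein of mouse T cells and thymocytes. Its level was 492, 457 and 443 CPM without Dox and 9.80, 4.12 and 12.8 CPM with Dox, from 2253 to 3298 and from 40 to 97 counts. It was the most abundant of the 10 genes in each library without Dox, and the groups were far apart. With Dox the log2 fold change of Thy1 was -5.72 ± 0.37 (SE; adjusted p = 3.3e-06 by edgeR), and 1.79% of tested genes had a log2 fold change of that size or more, up or down. Cd27 (Entrez gene 21940, chromosome 6, 125232620 to 125237136, minus strand) encodes a receptor of the TNF receptor family that costimulates T cells. Its level was 176, 179 and 230 CPM without Dox and 12.1, 22.8 and 12.7 CPM with Dox. The groups were widely separated, with replicate 11 the highest of the Dox libraries, as for Cd8b1. Its log2 fold change was -3.61 ± 0.28 (SE; adjusted p = 8.75e-06 by edgeR). Cd27 is the only member that shares its span with other annotated genes, E130112N10Rik and Mir8113. These had at most 35 and 0 counts in any library, where Cd27 had 89 or more.

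Cd5 and Cd6 encode related receptors of the scavenger receptor cysteine-rich family that temper T cell receptor signals, and they lie 50.3 kb apart on chromosome 19 (Cd5 at 10718107 to 10739026 and Cd6 at 10789339 to 10830062, both on the minus strand). Cd6 (Entrez gene 12511) was 20.6, 20.7 and 25.1 CPM without Dox and 3.95, 4.63 and 8.57 CPM with Dox. The groups did not overlap, and replicate 12 was the highest with Dox. Cd6 had a log2 fold change of -1.95 ± 0.38 (SE; edgeR, adjusted p = 0.00224). Cd5 (Entrez gene 12507) was 40.9, 40.1 and 40.0 CPM without Dox, and 40.0, 24.6 and 8.04 CPM with Dox. The libraries without Dox were nearly equal, whereas those with Dox were spread over a 4.98-fold range that reached the level without Dox. For Cd5 the log2 fold change was -0.74, with a 95% interval of -1.74 to 0.27 (adjusted p = 0.211 by edgeR). It was -1.32 without Dox replicate 10 (adjusted p = 0.0393 by edgeR) and -0.34 without Dox replicate 12 (adjusted p = 0.275 by edgeR). A fit with a separate variance for each group, chosen after the values were seen, gave -1.004 (adjusted p = 0.0286, limma-voom), so the call for Cd5 depended on 1 library and on the model of the spread. Dox replicate 12, the lowest for Cd5, was the highest for Cd6.

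Cd2 (Entrez gene 12481, chromosome 3, 101275908 to 101287939, minus strand) encodes an adhesion receptor that binds CD48. It was 135, 120 and 128 CPM without Dox and 131, 142 and 77.4 CPM with Dox, from at least 587 counts in each library. The groups overlapped, with 1 Dox library above all others and 1 below. For Cd2 the log2 fold change was -0.13, with a 95% interval of -0.64 to 0.38 (adjusted p = 0.67 by edgeR), and it was 0.19 with scaling by library size only and 0.077 without Dox replicate 12. B cell markers moved in the same libraries: 9 of 9 (Ms4a1, Cd79a, Cd79b, Pax5, Cr2, Fcer2a, Cd22, Ebf1 and Blk) were higher with Dox, and their summed level was 33.6 to 40.1 CPM without Dox and 1928 to 2123 CPM with Dox. No B cell marker was at 0 throughout a group. The part of B cells in the counts of Cd2 and Cd5 was not tested.

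Cd69 (Entrez gene 12515, chromosome 6, 129267324 to 129275375, minus strand), an early activation marker that holds the egress receptor S1PR1 inside the cell, had the lowest mean level of the 10 genes in both groups. Its level was 3.88, 3.04 and 2.03 CPM without Dox and 2.31, 2.37 and 8.96 CPM with Dox, from 12 to 26 and from 17 to 68 counts. A single Dox library, replicate 12, was above the range of the others. The log2 fold change was 0.60, with a 95% interval of -1.12 to 2.32 (adjusted p = 0.556 by edgeR), and it was -0.37 without Dox replicate 12, so its direction rested on that library. S1pr1 itself rose, from a mean of 6.25 CPM (SD 2.12) to 62.2 CPM (SD 3.06, n = 3 per group; edgeR adjusted p = 1.67e-05).

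Kit (Entrez gene 16590, chromosome 5, 75574987 to 75656722, plus strand) went the other way. Its level was 4.92, 4.26 and 2.37 CPM without Dox and 33.2, 53.2 and 37.7 CPM with Dox, from 14 to 33 and from 244 to 517 counts. Each Dox library was above every library without Dox. This gave a log2 fold change of 3.42 ± 0.36 (SE; adjusted p = 5.47e-05 by edgeR), and 6.66% of tested genes had a log2 fold change of that size or more, up or down. The ligand gene Kitl was 12.9 ± 2.34 and 20.4 ± 3.05 CPM (SD, n = 3 each), a difference that did not pass the threshold (adjusted p = 0.0965 by edgeR).

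Markers of other cells that carry KIT did not move as a block. Of 7 early progenitor markers (Cd34, Flt3, Mpo, Meis1, Hlf, Mecom and Gfi1b), 6 were higher with Dox and Mecom did not pass the threshold. Their summed level was 13.2 to 17.2 CPM without Dox and 140 to 164 CPM with Dox. The largest parts of the sum with Dox were Mpo (mean 65.1 CPM) and Gfi1b (mean 38.5 CPM). Flt3 was also counted among the dendritic markers above. Cd34, a marker of stem and progenitor cells, was without a count in the 3 libraries not given Dox. With Dox it was 8.002 ± 1.40 CPM (SD, n = 3), which is at least 13.2-fold higher than the floor of 3 counts per library. Of 7 mast cell and basophil markers, 4 could be tested and 1, the basophil protease gene Mcpt8, was higher. The mast cell protease genes Cpa3 and Tpsb2 were 3.94 ± 0.18 and 4.31 ± 0.45 CPM without Dox and 0.663 ± 0.821 and 0.527 ± 0.913 CPM with Dox (SD, n = 3 each; neither past the threshold), and Cma1 was at 0 with Dox. The summed level of that list was 11.8 to 17.3 CPM without Dox and 16.5 to 34.7 CPM with Dox. Of 7 erythroid markers 3 were higher (Tfrc, Hba-a1 and Slc4a1), 1 lower (Hbb-bs) and 3 not past the threshold (Gata1, Klf1 and Epor). Their summed level, mostly haemoglobin, was 57208 to 62544 CPM without Dox and 69721 to 74924 CPM with Dox. The part of progenitor cells in the Kit counts was not tested.

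**Figure D2:**
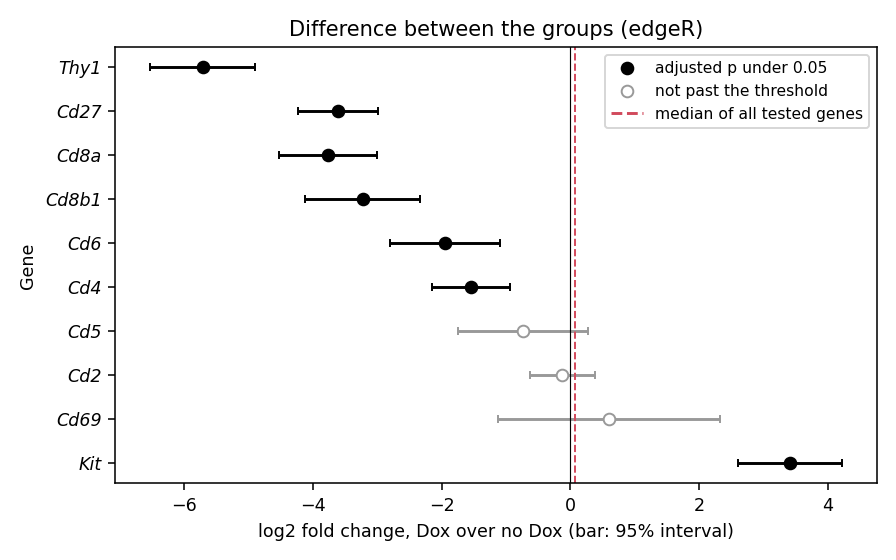
The log2 fold change with Dox of each gene with its 95% interval, computed from the edgeR fit. Points are filled where the adjusted p-value was under 0.05, and a dashed line marks the median of all tested genes. The values run from -5.72 for Thy1 to 3.42 for Kit, and the intervals of Cd5, Cd2 and Cd69 cross 0.

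For 4 of the 10 genes (Cd8a, Cd5, Cd27 and Kit) a promoter sequence was at hand in RefSeq (GRCm38.p6), running from 250 bases before to 50 bases after an annotated transcript start. For Cd8a and Kit this is the first base of the span given above, whereas for Cd27 and Cd5 it lies within the span. Windows of 2 genes that fell and of the gene that rose are shown, 5′ to 3′ along the gene, because they set genes of opposite direction side by side. Capitals mark matches on either strand to 7 short motifs. Proteins of the RUNX family recognise a core searched for here as TGTGGT. The core taken for ETS factors was AGGAAG, a motif of many blood cell genes. For GATA factors the letters searched were AGATAA, as in many erythroid and T cell genes. The E-box, recognised by basic helix-loop-helix proteins, was taken as CAGCTG in this search. The GC box, recognised by SP1 and its relatives, was searched for as GGGCGG in each window. RBPJ, the DNA-binding partner of NOTCH, was given the core GTGGGAA for this purpose. The TATA box, at which the general transcription machinery assembles, was searched for as TATAAA throughout. The windows are chr6:71373177-71373476 (plus strand) for Cd8a, chr6:125236978-125237277 (minus strand) for Cd27 and chr5:75574737-75575036 (plus strand) for Kit.
Cd8a: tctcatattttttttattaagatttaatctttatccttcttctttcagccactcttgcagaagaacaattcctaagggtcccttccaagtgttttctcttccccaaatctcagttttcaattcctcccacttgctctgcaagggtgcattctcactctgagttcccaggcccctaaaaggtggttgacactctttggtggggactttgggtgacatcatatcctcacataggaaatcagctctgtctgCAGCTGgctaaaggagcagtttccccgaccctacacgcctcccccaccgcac
Cd27: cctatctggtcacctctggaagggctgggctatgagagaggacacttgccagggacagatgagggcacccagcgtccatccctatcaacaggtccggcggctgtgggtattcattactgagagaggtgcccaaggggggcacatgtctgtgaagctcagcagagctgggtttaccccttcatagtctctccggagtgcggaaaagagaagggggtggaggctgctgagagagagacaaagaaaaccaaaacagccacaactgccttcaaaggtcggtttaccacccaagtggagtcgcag
Kit: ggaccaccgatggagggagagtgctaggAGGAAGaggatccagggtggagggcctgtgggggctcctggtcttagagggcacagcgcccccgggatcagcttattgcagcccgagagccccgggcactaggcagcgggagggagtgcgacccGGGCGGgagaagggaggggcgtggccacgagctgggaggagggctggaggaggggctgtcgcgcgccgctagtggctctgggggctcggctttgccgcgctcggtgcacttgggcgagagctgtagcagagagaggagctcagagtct
In the Cd8a window 1 match was found, an E-box that spans the start of the gene. The Cd27 window held none of the 7 motifs. The Kit window held 1 ETS core and 1 GC box, and the Cd5 window 2 ETS cores. Over 32851 such windows of all genes, 16.3% held the E-box, 35.4% the ETS core and 35.7% the GC box, so these matches are common. No window of the 4 genes held the RBPJ core, which 6.38% of all windows held. The G and C content was 46.7% for Cd8a, 56% for Cd27 and 69% for Kit, beside a median of 52.7% over all windows. A match is a string of letters and does not show binding.

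The order of the 10 genes by mean level differed between the groups. These libraries read 1 end of each transcript, so counts were compared between genes without division by length. Without Dox the order was Thy1, Cd27, Cd2, Cd8b1, Cd8a, Cd5, Cd4, Cd6, Kit and Cd69, and neighbours overlapped only between Cd8b1 and Cd8a and between Kit and Cd69. With Dox it was Cd2, Kit, Cd5, Cd27, Cd4, Thy1, Cd8b1, Cd6, Cd8a and Cd69, and neighbours were apart only between Cd2 and Kit and between Cd27 and Cd4. Thy1 held 44.7% ± 2.0 of the summed counts of the 10 genes in the absence of Dox but 4.06% ± 2.70 in its presence (SD, n = 3 each). Cd2 held 12.3% ± 0.37 and 47.8% ± 5.54, and Kit 0.371% ± 0.126 and 17.4% ± 3.77 (SD, n = 3 each). The summed level was 1065, 1007 and 1044 CPM without Dox and 254, 282 and 187 CPM with Dox, 4.32-fold lower (exact permutation test, two-sided, p = 0.1, the least this design allows). In the Dox libraries Cd2 and Kit thus made up most of the sum.

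Each gene was next set against the CD3 chains of the same library, the invariant signalling part of the T cell receptor, which removes the scaling between libraries. The summed counts of Cd3d, Cd3e, Cd3g and Cd247 came to 6478, 4539 and 5517 without Dox but only 503, 566 and 448 with it. Cd8a was 0.0734, 0.0763 and 0.0858 of that sum without Dox and 0.1003, 0.0485 and 0.117 of it with Dox, and the groups overlapped. Cd27 (0.182, 0.195 and 0.246 against 0.178, 0.393 and 0.215) and Cd8b1 (0.0962, 0.0937 and 0.071 against 0.0924, 0.255 and 0.0814) overlapped as well. These 3 genes, in the same order, had mean log2 differences of 0.08, 0.26 and 0.53, and exact permutation tests gave 0.9, 0.7 and 0.6. The difference of Cd8b1 was 0.0086 without Dox replicate 11.

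The other 7 genes had groups that did not overlap on this measure, each with the smallest p-value possible (exact two-sided permutation p = 0.1; 0.15 adjusted over the 12 ratios). The divisor itself was lower with Dox, as the counts above show, and 89.8% of the 14110 tested genes also had groups that did not overlap here, 88.8% higher and 1.01% lower with Dox, and the median gene was 3.90 higher on the log2 scale. A higher value on this measure is therefore the background, and each gene is read by its distance from that median. Thy1 was 0.509, 0.496 and 0.474 of the CD3 sum without Dox and 0.144, 0.0715 and 0.217 with Dox, a mean log2 difference of -1.91. Cd4 was 0.0291, 0.029 and 0.0289 of it without Dox but 0.122, 0.181 and 0.155 with Dox, a mean log2 difference of 2.38. Thy1 was thus lower relative to CD3 in every Dox library, and Cd4 was higher but by less than the median gene. The mean log2 differences of the remaining genes were 1.91 for Cd6, 2.91 for Cd5, 3.75 for Cd2, 4.25 for Cd69 and 7.36 for Kit, so that Cd2 and Cd69 lay near the median of all genes and Kit above it. Without Dox replicate 12 the difference was 3.53 for Cd5 and 3.59 for Cd69. With Lck as the reference, which fell less than the CD3 sum, the difference of every gene moves down by the same step, that of the median gene included. Distances from the median are therefore unchanged, whereas signs can change. The differences were then -0.92 for Cd8a, -0.47 for Cd8b1 and -0.74 for Cd27 (exact two-sided permutation p = 0.1, 0.6 and 0.3). They were -2.92 for Thy1, 0.91 for Cd6, 1.38 for Cd4, 1.91 for Cd5, 2.75 for Cd2, 3.25 for Cd69 and 6.35 for Kit.

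**Figure D3:**
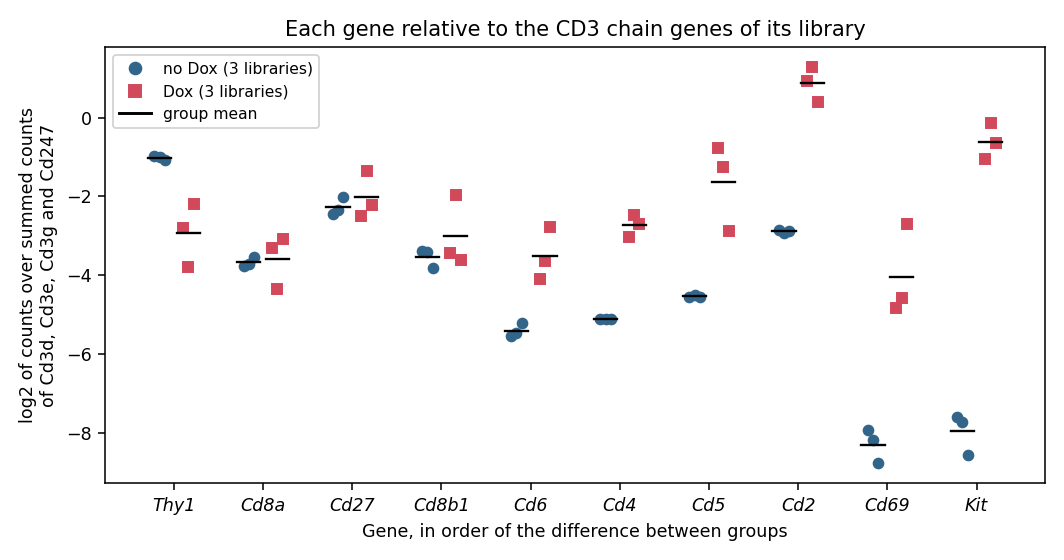
Log2 of the counts of each gene over the summed counts of Cd3d, Cd3e, Cd3g and Cd247 in the same library, in order of the difference between the groups, with bars at the group means. Thy1 is lower with Dox, Cd8a, Cd27 and Cd8b1 overlap, and Cd6, Cd4, Cd5, Cd2, Cd69 and Kit are higher in all 3 Dox libraries, as were 88.8% of all tested genes, whose median difference was 3.90.

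Other genes of the coreceptor pathway were taken from 5 lists by role. Of 69 genes tested, 37 fell and 20 rose, and the median log2 fold change was -0.76, beside 0.07 over all tested genes. Of 9 T cell receptor and CD3 chain genes, 8 fell and 0 rose (median -3.39), among them Cd3d (-4.87 ± 0.18, SE) and Trbc1 (-5.57 ± 0.29). The pre-receptor chain gene Ptcra had 210, 114 and 166 counts without Dox and 8, 0 and 0 with Dox, too few in the Dox libraries for its fitted fold change to be given. Trdc was the one that did not pass the threshold. Of 12 transcription regulators of the coreceptor genes and the lineage, 10 fell and 1 rose (median -2.56). Gata3, which is needed for CD4 lineage cells, went from 435 ± 21.2 to 9.04 ± 2.42 CPM and Tcf7 from 683 ± 87.6 to 13.5 ± 9.57 CPM (SD, n = 3 each). Runx3, which silences Cd4 in CD8 lineage cells, rose from a mean of 39.8 CPM (SD 1.4) to 110 CPM (SD 8.07, n = 3 per group; edgeR adjusted p = 9.92e-05), while its partner Cbfb fell by 2.51 on the log2 scale. Zbtb7b, the CD4 lineage regulator, was 2.06 ± 0.46 and 6.77 ± 5.21 CPM (SD, n = 3 each), and the groups overlapped.

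Of 10 genes of proximal signalling, 7 fell and 0 rose (median -0.75). Lck, the kinase bound by CD4 and CD8A, fell by 2.91 on the log2 scale (SE 0.21), Zap70 had a log2 fold change of -2.52 (SE 0.27) and the adaptor Lat one of -4.17 (SE 0.26), whereas Fyn, Lcp2 and Ubash3a did not pass the threshold. Ptprc, the CD45 phosphatase of all white blood cells, fell by 0.60 on that scale (SE 0.15). Of 16 ligands and partners tested, 9 rose and 2 fell (median 0.92). The class II genes H2-Aa and H2-Ab1, which encode the ligand of CD4, rose by log2 fold changes of 3.57 ± 0.31 and 3.20 ± 0.23 (SE), and the class I genes H2-K1 and H2-D1, which encode that of CD8, by 3.14 ± 0.17 and 1.63 ± 0.29. Alcam, the ligand of CD6, rose by a log2 fold change of 1.63 ± 0.28, Cd48, the ligand of CD2, did not pass the threshold (adjusted p = 0.106 by edgeR), and Cd70, the ligand of CD27, was too low to test. Of 22 other surface genes used for staging, 10 fell and 10 rose (median 0.52), with Il2ra (-4.40 ± 0.34, SE), Cd28 (-3.28 ± 0.37) and Ccr9 (-2.32 ± 0.41) among the falls and Ly6a (2.47 ± 0.18), Cd44 (1.75 ± 0.26) and Ccr7 (2.32 ± 0.37) among the rises.

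**Figure D4:**
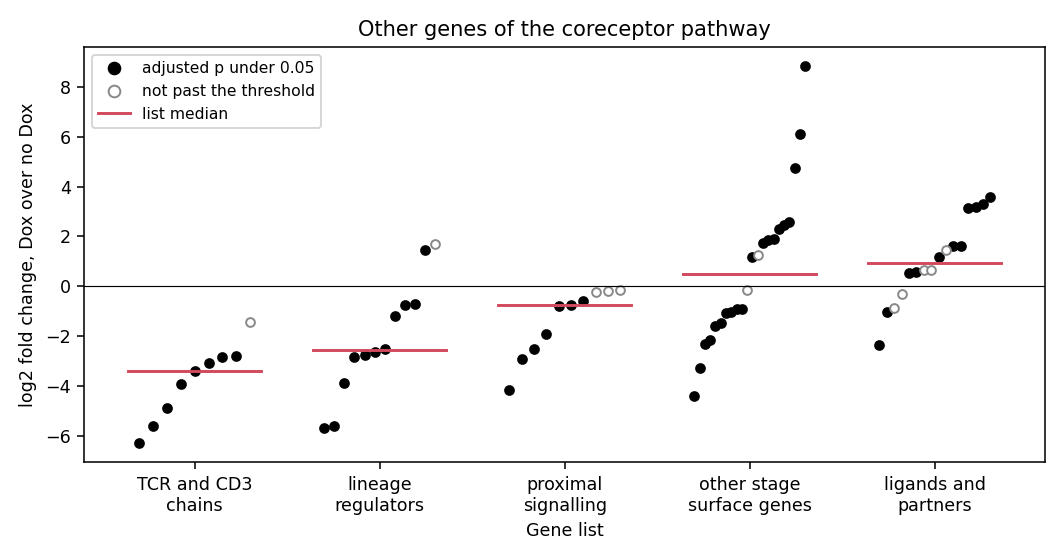
The log2 fold change with Dox of the 69 tested genes in 5 lists, filled where the adjusted p-value was under 0.05, with a line at each list median. Medians run from -3.39 for the T cell receptor and CD3 chains to 0.92 for ligands and partners; the topmost point among the surface genes is Cd34, which had 0 counts without Dox and whose position depends on the prior count.

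The remaining marker lists complete the description of the libraries in which these genes were read. Of 6 neutrophil markers, 6 were higher with Dox, with a summed level of 45.4 to 60.7 CPM without Dox and 1710 to 1955 CPM with Dox, and Ly6g was at 0 without Dox. Of 8 NK markers 4 could be tested, 2 were higher (Eomes and Nkg7) and 1 lower (Gzma). The summed level of this list, 348 to 399 CPM without Dox and 17.8 to 27.8 CPM with Dox, was nearly all Gzma without Dox. Gzma was at 0 with Dox, and Klra8 was at 0 in all 6 libraries. Of 4 genes listed for regulatory T cells, 2 were lower (Ikzf2 and Il2ra), 1 higher (Foxp3, from 0.099 ± 0.172 to 2.31 ± 0.06 CPM, SD, n = 3 each) and Ctla4 did not pass the threshold. The summed level of these genes, 459 to 491 CPM without Dox and 43.3 to 51.4 CPM with Dox, was mostly Ikzf2. Of 6 stromal and endothelial markers 1 was higher (Stab2) and 2 lower (Pdgfrb and Col1a1), and the summed level overlapped between the groups.

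**Figure D5:**
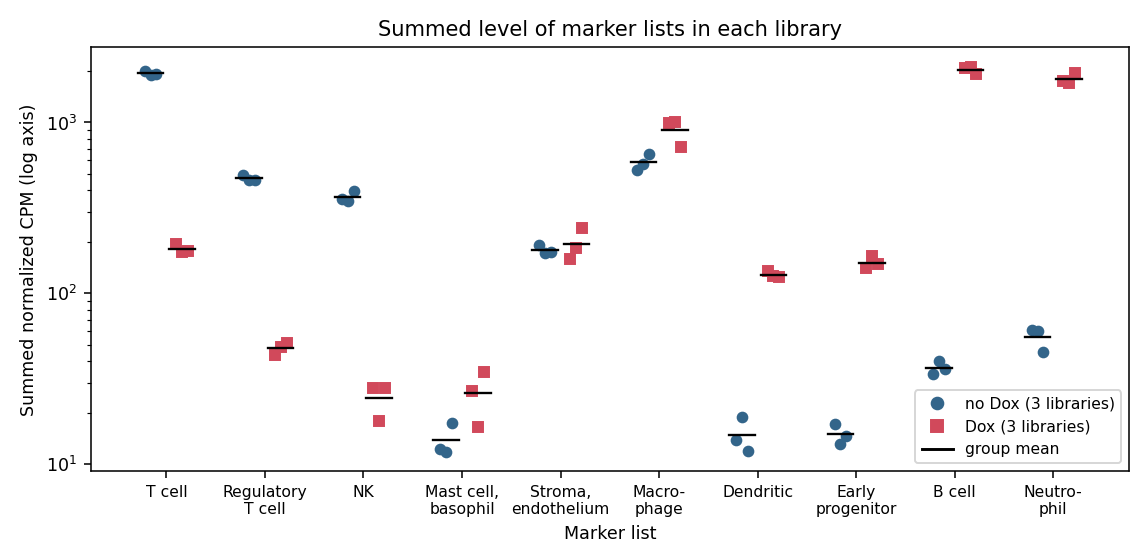
Summed normalized CPM (log axis) of 10 marker lists in each of the 6 libraries, with bars at the group means. The sum for regulatory T cells was mostly Ikzf2, while Foxp3 was higher with Dox. The T cell list lies at 1898 to 1992 CPM without Dox and 175 to 195 with Dox, and the B cell list at 33.6 to 40.1 and 1928 to 2123.

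The genes with profiles most like those of the members were looked for among 7047 genes of at least median level, by Pearson's r of log2 CPM over the 6 libraries, which share their group difference. For Cd8a these were Kpnb1 and Mtap, for Thy1 Cycs and Emc8, for Cd27 Egr1 and Sdhc, and for Kit Scamp2 and Gimap4, all with r of at least 0.998. Because r above 0.95 was reached by 873 genes for Cd8a and by 759 for Kit, these names describe 6 libraries in 2 groups and little else. For the genes that did not pass the test the numbers were lower, at 36 for Cd2, 79 for Cd5 and 23 for Cd69.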

How the data were processed

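The authors deposited 1 table of raw read counts per Entrez gene ID, with 1 column per library and no pooling. Libraries were QuantSeq 3′ mRNA libraries, per the labels' protocols, and STAR, featureCounts and build GRCm38 are named in the submitters' processing notes, without versions. The annotation, strand setting and handling of multimapping reads are not given in the sources used here. All 6 columns matched a sample title, and 0 were left over. Symbols came from RefSeq (GRCm38.p6), strands from GENCODE M21 and promoter sequences from RefSeq; 39374 of 40808 IDs (96.5%) had a symbol.

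Genes with few counts were removed by filterByExpr (a minimum count of 10 and total of 15). The rest were scaled by TMM and tested with edgeR 4.0.16 in R 4.3.3 on all 6 libraries without covariates. Standard errors were computed from each log2 fold change and F value. Ratios of counts had 0.5 added to each term and were tested by exact permutation. On simulated counts of 14110 genes, the test called 60.5% of 190 genes given a log2 change of 2 and 11 of 13233 unchanged ones. The simulation changed few genes, up and down equally, and gave both groups the same spread per gene. In the data 45.6% of genes were called and the spread was larger with Dox, so these rates need not hold here. Alternatives were other scalings and filters, DESeq2 1.42.0, limma-voom (limma 3.58.1), a stricter threshold and leaving out each library; a fit with a variance for each group was added after seeing the data. Named genes were the members, the listed genes and the 2 nearest profiles per member. The marker lists, with their counts and sums, leave out 2 genes that are not reported here, and listed genes that are not named enter only those counts and sums. The members and lists were chosen with earlier results of these data known.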

Additional observations from a re-analysis of the deposited data

How the results depend on the processing

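No paired analysis was possible because replicate numbers 4 to 6 and 10 to 12 do not recur across groups. Of 160 results for single members under the alternatives, 154 kept their direction and their side of the threshold. The 6 fallen genes and Kit did so in all 16 alternatives each. The stricter threshold counts among the 16 and reuses the main fit, so it could not change a direction. The number of members called lower was 6 or 7 and the number called higher 1 in each alternative. The exceptions were Cd5, Cd2 and Cd69. Cd5 passed the threshold without a low-count filter (adjusted p = 0.0155, edgeR), without Dox replicate 10 and with a variance for each group. Cd2 reversed to 0.19 with library size only, a scaling that moved the median over all tested genes from 0.07 to 0.38. Over the fits that left out 1 library, Cd2 ran from -0.32 to 0.077 and Cd69 from -0.37 to 0.89. The cause was not tested. With 0.01 as the threshold, by construction the stricter one, 2200 genes were called higher, down from 3324. Over the fits that left out 1 library the number of genes called ran from 4794 to 7025. With Lck as the reference every gene moved down by the same step, which took the log2 differences of Cd8a, Cd8b1 and Cd27 to -0.92, -0.47 and -0.74. Leaving out 1 library, the difference of Cd8b1 to Cd8a ran from -0.46 to 0.9996, of Cd8a to CD3 from -0.17 to 0.47, of Cd8b1 to CD3 from 0.0086 (without Dox replicate 11) to 0.83 and of Cd27 to CD3 from -0.074 to 0.50. Among the members, Cd69 had 12 to 68 counts in a library and Kit 14 to 33 without Dox, so counting error was larger for these than for Thy1 or Cd2 without Dox. The same limit holds for fallen genes with Dox, where Cd8a had 27 to 52, Cd6 29 to 65, Cd8b1 36 to 144 and Thy1 40 to 97 counts.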
